A study of Homo sapiens with 12 samples.

Results

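The zinc finger genes described here are the protein-coding genes of human chromosome 19 whose symbol is ZNF followed by digits and an optional letter, as GENCODE v29 lists them on GRCh38. They numbered 246 of the 60617 gene identifiers in the deposited tables, of which 19886 were protein coding. RNA was sequenced in A549 cells, an established human lung adenocarcinoma line, harvested 24 hours after transfection of small interfering RNAs (siRNAs). The groups were siYAP/TAZ#1 and siYAP/TAZ#2, each given its own mixture of siRNAs that target YAP1 and the TAZ gene WWTR1, and siCo, which received a non-targeting control siRNA, with 4 libraries each. Treatment labels call the combinations Y1T2 and Y2T3, replicates are stated to be biological, and no untransfected cells are among the groups. YAP1 and TAZ are the coactivators that the Hippo pathway holds in check, and they act on DNA mainly through the TEAD factors.

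Most zinc finger genes of chromosome 19 encode proteins with a tandem array of C2H2 fingers, each of which reads a few bases of DNA. In the KRAB class, the largest family of human transcription factors, the array follows an N-terminal KRAB box, which recruits TRIM28. TRIM28 in turn brings in the histone methyltransferase SETDB1, the HP1 proteins and deacetylase complexes, and many of the fingers are directed at transposable elements. The genes arose by repeated tandem duplication, so they stand in clusters along the chromosome and many resemble each other closely. A search of the GENCODE v29 translations with a profile of the KRAB box found it in 211 of the 246 proteins and not in 35. The C2H2 pattern occurred 0 to 36 times per protein, with a median of 12 (13 with a KRAB box and 9 without).

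Promoters are shown for 6 of the members described below, to set their DNA beside their RNA values. Their motifs do not represent those of the members, whose counts follow the sequences. They are RefSeq sequences on GRCh38.p14, with 250 bases before and 50 after the annotated start, written 5′ to 3′ on the gene's strand. Capitals mark the letters CATTCC, the core that TEAD factors bind, on either strand (GGAATG on the other), and TGANTCA, the AP-1 site, with N for any base. The motifs were searched independently, so that a base could count toward both. The first pair rose with both siRNA combinations and was printed from chr19:58380981-58381280 (minus strand, ZNF837) and chr19:37172646-37172945 (minus strand, ZNF585A), and each has 1 CATTCC match.
ZNF837: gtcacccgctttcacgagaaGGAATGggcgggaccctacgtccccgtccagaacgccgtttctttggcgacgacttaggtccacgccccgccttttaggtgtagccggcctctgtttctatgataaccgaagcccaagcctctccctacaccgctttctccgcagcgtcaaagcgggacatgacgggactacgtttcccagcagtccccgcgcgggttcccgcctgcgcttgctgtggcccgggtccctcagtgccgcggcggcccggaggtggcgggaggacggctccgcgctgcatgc
ZNF585A: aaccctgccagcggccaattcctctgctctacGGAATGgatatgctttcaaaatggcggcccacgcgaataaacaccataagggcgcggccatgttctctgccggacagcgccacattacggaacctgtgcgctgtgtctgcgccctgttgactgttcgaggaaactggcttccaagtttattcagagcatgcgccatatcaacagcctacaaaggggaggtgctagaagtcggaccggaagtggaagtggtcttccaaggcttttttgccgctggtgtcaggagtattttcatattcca

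The next pair fell with both combinations and was printed from chr19:42068227-42068526 (plus strand, ZNF574) and chr19:57830049-57830348 (plus strand, ZNF587B). ZNF574 has 2 CATTCC matches and ZNF587B has 1.
ZNF574: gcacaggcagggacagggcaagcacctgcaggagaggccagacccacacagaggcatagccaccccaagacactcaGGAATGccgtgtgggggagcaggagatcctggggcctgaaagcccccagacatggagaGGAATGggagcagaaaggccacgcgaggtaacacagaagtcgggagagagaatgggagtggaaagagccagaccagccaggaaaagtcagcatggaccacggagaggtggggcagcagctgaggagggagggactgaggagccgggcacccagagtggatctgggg
ZNF587B: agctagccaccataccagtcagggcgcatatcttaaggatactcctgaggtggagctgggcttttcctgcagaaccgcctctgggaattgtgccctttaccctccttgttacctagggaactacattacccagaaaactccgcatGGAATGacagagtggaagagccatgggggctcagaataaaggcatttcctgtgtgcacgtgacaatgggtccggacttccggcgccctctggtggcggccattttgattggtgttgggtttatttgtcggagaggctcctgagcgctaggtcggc

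The last pair differed between the combinations and was printed from chr19:57240382-57240681 (plus strand, ZNF805) and chr19:57279732-57280031 (plus strand, ZNF460). Neither window holds CATTCC, and that of ZNF460 holds 1 TGANTCA match.
ZNF805: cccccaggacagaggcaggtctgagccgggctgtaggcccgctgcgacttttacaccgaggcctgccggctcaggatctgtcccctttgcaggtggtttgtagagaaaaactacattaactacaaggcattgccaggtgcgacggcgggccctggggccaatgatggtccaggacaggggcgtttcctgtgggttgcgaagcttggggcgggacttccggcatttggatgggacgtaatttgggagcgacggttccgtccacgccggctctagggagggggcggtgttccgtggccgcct
ZNF460: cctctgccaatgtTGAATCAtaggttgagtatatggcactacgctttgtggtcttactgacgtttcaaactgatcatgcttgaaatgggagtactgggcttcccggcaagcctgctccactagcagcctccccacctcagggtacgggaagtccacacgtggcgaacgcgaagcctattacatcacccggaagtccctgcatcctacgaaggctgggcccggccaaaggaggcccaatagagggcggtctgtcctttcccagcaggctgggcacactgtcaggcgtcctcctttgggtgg

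RefSeq promoters were matched for 215 of the 246 members. CATTCC stood in 33 of them (15.3%), against 14% of all 27305 promoters of the same length, and TGANTCA in 14 (6.51%), against 7.76%. CATTCC stood in 4 of the 13 matched promoters of members that rose with both combinations and in 3 of the 10 of members that fell with both. Each promoter shown above for these sets holds CATTCC, so those shown do not represent the sets. Among the promoters without it were those of ZNF606, ZNF613, ZNF112, ZNF792, ZNF296 and ZNF146. TGANTCA stood in 1 promoter of each of these sets. Members' promoters had a median GC content of 59.7% and 20 CpG dinucleotides, against 58.3% and 14 for all promoters. These are matches of letters and say nothing about binding.

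The knockdown was seen in the targeted genes: YAP1 averaged 18.7 ± 1.43 CPM with siYAP/TAZ#1 and 17.4 ± 1.19 CPM with siYAP/TAZ#2, against 121 ± 4.03 CPM with siCo (CPM, counts per 1e6 counts of a library after TMM scaling; SD, n = 4 each). WWTR1 averaged 32.9 ± 1.14 and 32.4 ± 2.38 CPM with the combinations, against 241 ± 9.71 CPM with siCo. Library totals ran from 29.6 to 38.3 (in units of 1e6) estimated counts, so that 10 counts were worth 0.25 to 0.375 CPM. Of 9 lung epithelial markers, 8 reached 1 CPM in a group mean, and SFTPB did not. Among the markers of other cell types, 0 of 3 endothelial, 1 of 3 leukocyte (CD14) and 1 of 4 fibroblast markers (COL1A1) did. CD14 averaged 5.76 and 7.07 CPM with the combinations against 2.23 CPM with siCo, and PTPRC and CD3E stayed under 1 CPM; COL1A1 averaged 153 and 117 CPM against 110 CPM, with COL1A2, PDGFRB and LUM under 1 CPM. Their part in the results was not tested. One library stood apart in base composition. In siYAP/TAZ#2 replicate 1, genes of the lowest GC quartile differed from the group's other libraries by −0.338 on the log2 scale and genes of the highest GC quartile by 0.364. Their difference was −0.702 there and −0.2 to 0.292 in the other 11 libraries. Members' transcripts had a median GC content of 42.4%, against 50% for the other coding genes, so many counts of calls below are also given without this library.

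Levels of these genes were low. In siCo, 19 of the 246 members reached 10 TPM (transcripts per 1e6, a level scaled for length), 116 lay between 1 and 10, 108 lay above 0 and under 1, and 3 were listed at 0. The median was 1.27 TPM. Genes without a KRAB box had a median of 6.41 TPM in siCo and those with one 1.1 TPM, and all 10 of the highest members lacked it. The order at the top in siCo was ZNF580 (54.5 ± 4.92 TPM), ZNF146 (39.7 ± 8.23), ZNF787 (32.8 ± 3.17), ZNF444 (31.2 ± 4.94) and ZNF574 (22.3 ± 3.8; SD, n = 4). ZNF787 and ZNF444 lay within each other's spread. These 5 supplied 21.3% of the members' summed TPM.

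**Figure D1:**
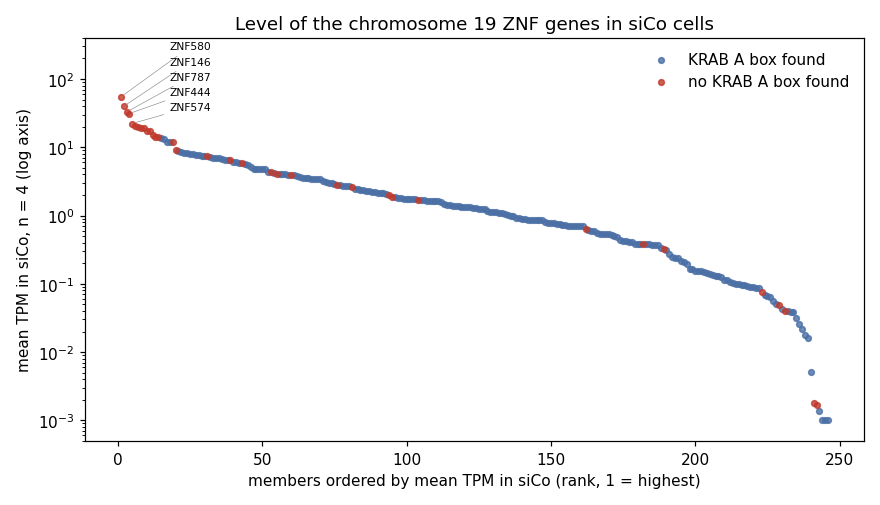
Level of each of the 246 chromosome 19 ZNF genes in siCo, in TPM on a log axis, ranked from high to low, with genes without and with a KRAB box in different colours and values under 0.001 drawn at 0.001. The genes without a KRAB box fill the first 10 ranks, and the median of all members is 1.27 TPM.

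The members' summed level was 2524 ± 17.4 CPM with siYAP/TAZ#1 and 2486 ± 84.5 CPM with siYAP/TAZ#2, against 2661 ± 68.9 CPM with siCo. In TPM the order was the opposite, with sums of 1039 ± 224 and 1104 ± 238 TPM in the combinations against 847 ± 138 TPM in siCo, so the direction of the sum depends on the scale. In siYAP/TAZ#2 replicate 1 the genes with a KRAB box summed to 1176 CPM, against 1348 to 1382 CPM in the group's other libraries, and those without one to 1411 CPM, against 1023 to 1131 CPM.

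Of the 246 members, 221 passed the filter on low counts and were tested. The other 25 never exceeded 0.51 CPM in any library, and 2 of them had no read at all. They were ZNF20, ZNF69, ZNF98, ZNF135, ZNF253, ZNF257, ZNF415, ZNF433, ZNF534, ZNF536, ZNF540, ZNF541, ZNF560, ZNF625, ZNF681, ZNF682, ZNF709, ZNF723, ZNF728, ZNF729, ZNF730, ZNF763, ZNF781, ZNF816 and ZNF878. Nothing can be said of their change at this depth.

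Members were called less often than all genes tested. With siYAP/TAZ#1, 16 members were higher and 13 lower than with siCo (7.24% and 5.88%), where 16.4% and 18.5% of all genes tested were called (edgeR's quasi-likelihood test, Benjamini-Hochberg adjusted p under 0.05). With siYAP/TAZ#2, 24 were higher and 22 lower (10.9% and 9.95%), against 19% and 19.2% of all genes tested. Both comparisons use the same 4 siCo libraries. Called in the same direction with both were 14 members higher and 11 lower (6.33% and 4.98%), against 12.5% and 13.3% of all genes. Among the other coding genes tested, 19.7% and 25.9% were called higher and lower with siYAP/TAZ#1, and 23.5% and 26% with siYAP/TAZ#2. Called with both were 15.6% and 18.7% of them. Without siYAP/TAZ#2 replicate 1 the members' counts were 23 higher and 20 lower with siYAP/TAZ#1 and 38 higher and 27 lower with siYAP/TAZ#2 (10.3% and 8.97%, then 17% and 12.1% of the 223 members tested there). Of all genes tested without it, 19.1% were higher and 22.3% lower with siYAP/TAZ#1 and 20.8% and 22.1% with siYAP/TAZ#2.

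Since a gene's level bears on how often it is called, members were set beside the other coding genes of equal mean level. Those 14584 genes were split at the deciles of mean log2 CPM of all coding genes tested and weighted to the members' spread over the deciles. At equal level, 25.5% of other coding genes were higher and 14% lower with siYAP/TAZ#1, and 30.9% and 13.9% with siYAP/TAZ#2. At those rates 56.5 and 30.9 members would be called higher and lower with siYAP/TAZ#1, where 16 and 13 were, and 68.2 and 30.8 with siYAP/TAZ#2, where 24 and 22 were. In the third decile from the bottom, which holds 50 members, 8% of members were higher with siYAP/TAZ#1, against 36.0% of the other coding genes. With siYAP/TAZ#2 it was 18% of members against 42.4%. For lower calls the members came close to the others in the ninth decile, with 42.9% of 7 members against 43.2% with siYAP/TAZ#1, though a bin of 7 genes gives only a rough share. With siYAP/TAZ#2 the lower calls of members exceeded those of the others in the fifth, the seventh and the ninth decile (30.8%, 50% and 57.1% of 13, 4 and 7 members, against 26.8%, 34% and 42.3%), and lay below them in the first 4 deciles.

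**Figure D2:**
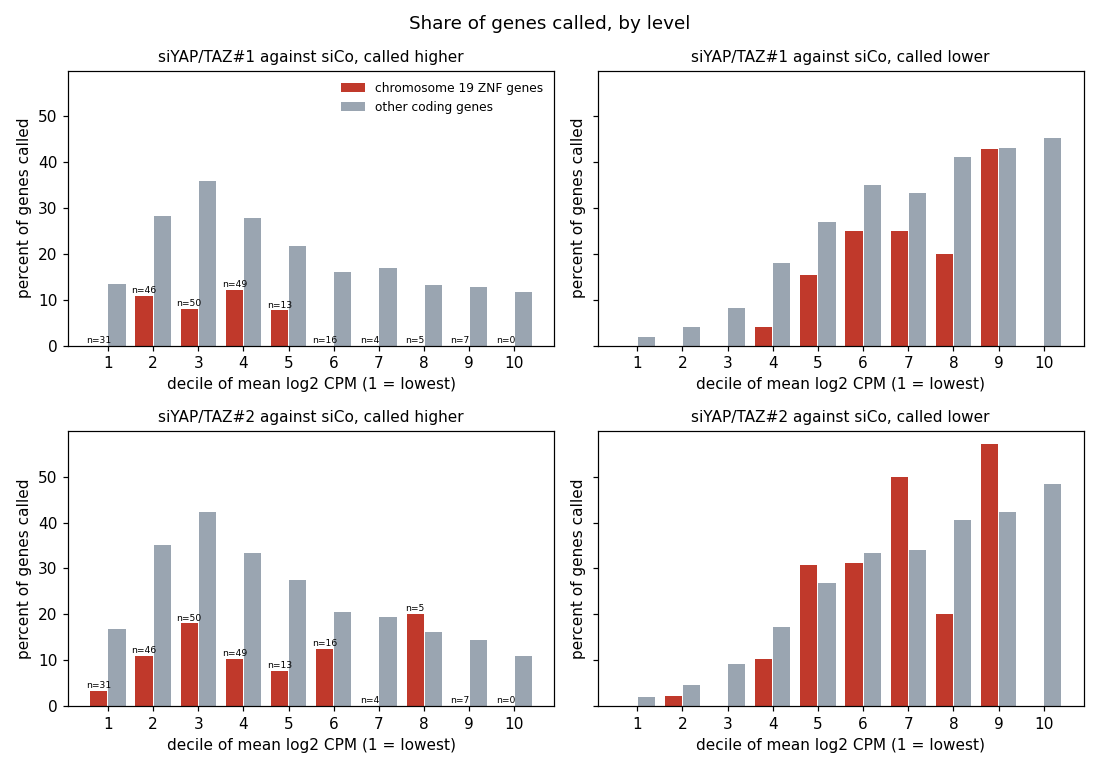
Share of genes called higher and lower than siCo in each decile of mean level (log2 CPM, lowest first), for the chromosome 19 ZNF genes and for the other coding genes tested, with each combination in a panel of its own. The share of members called higher stays at or under 18% in the first 4 deciles, where that of other coding genes reaches 36.0% with siYAP/TAZ#1 and 42.4% with siYAP/TAZ#2.

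The members' changes were also smaller in size. Their median absolute log2 change was 0.164 with siYAP/TAZ#1 and 0.196 with siYAP/TAZ#2. For the other coding genes, the decile medians averaged with the members' weights were 0.328 and 0.375. Within the ninth decile the members' median was the larger, at 0.24 against 0.212 with siYAP/TAZ#1 and 0.345 against 0.222 with siYAP/TAZ#2. The same held in the seventh with siYAP/TAZ#2 (0.279 against 0.221). Standard errors (SE) here are approximate, taken as the absolute log2 change over the square root of the test's F statistic. They had medians of 0.14 and 0.141 in members, and the others' averaged decile medians were 0.178 and 0.178, an unlike measure. Within deciles, with siYAP/TAZ#1, members' median standard errors lay below the others' in the first and second (0.392 against 0.405 and 0.213 against 0.238). From the third to the ninth they lay above, up to 0.123 against 0.07 in the eighth and 0.122 against 0.068 in the ninth. A log2 change of at least 0.5 in either direction was found in 17 members (7.69%) with siYAP/TAZ#1 and in 26 (11.8%) with siYAP/TAZ#2, against 24.7% and 28% of the other coding genes. The median signed change of members was 0.05 and 0.03, against 0.02 and 0.02 for all genes.

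How the libraries are scaled moved the split of higher against lower calls. Scaling by library size alone shifted the median of all genes to 0.20 and 0.21 and that of members to 0.22 and 0.22. It gave 39 members higher and 3 lower with siYAP/TAZ#1 and 49 higher and 6 lower with siYAP/TAZ#2, or 92.9% and 89.1% of calls higher, against 55.2% and 52.2% under TMM. Relative to other coding genes of equal level, members were still called higher less often under that scaling, 17.6% against 37.5% with siYAP/TAZ#1 and 22.2% against 42.9% with siYAP/TAZ#2. An offset for transcript GC content gave 30 higher and 24 lower with siYAP/TAZ#1 and 33 higher and 37 lower with siYAP/TAZ#2. There the lower share with siYAP/TAZ#2 was 16.7% in members and 16.3% in the others of equal level, so that difference was gone, while the higher share remained below, at 14.9% against 33.7%.

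Genes with and without a KRAB box were described apart. With a KRAB box, 189 were tested, of which 14 rose and 5 fell with siYAP/TAZ#1 (7.41% and 2.65%) and 19 rose and 14 fell with siYAP/TAZ#2 (10.1% and 7.41%). Without one, 32 were tested, of which 2 rose and 8 fell with siYAP/TAZ#1 (6.25% and 25%) and 5 rose and 8 fell with siYAP/TAZ#2 (15.6% and 25%). Over all genes tested the shares were 16.4% and 18.5% with siYAP/TAZ#1 and 19% and 19.2% with siYAP/TAZ#2. The median log2 change was 0.07 and 0.05 with a KRAB box and −0.10 and −0.09 without one, beside 0.02 and 0.02 for all genes. Of the 11 members that fell with both combinations, 7 lacked the box, and of the 14 that rose with both, 2 did. These are 21.9% and 6.25% of the 32 without the box, where 13.3% of all genes tested fell and 12.5% rose with both. At a mean of at least 10 CPM, 26.1% of the 23 without the box fell with both, against 26.6% of other coding genes. With the box it was 9.52% of 42. Library size alone turned the balance in the genes without a box to 7 higher and 2 lower with siYAP/TAZ#1 and 9 higher and 3 lower with siYAP/TAZ#2. The 21581 genes tested also turned under that scaling, to 5876 higher and 1905 lower with siYAP/TAZ#1 and 6538 higher and 2037 lower with siYAP/TAZ#2. Without siYAP/TAZ#2 replicate 1, genes with the box gave 18 higher and 9 lower, then 33 and 14, and genes without it 5 and 11, then 4 and 13. These counts are for siYAP/TAZ#1 and then siYAP/TAZ#2, of the members tested with all libraries. Of all genes tested without that library, 19.1% and 22.3%, then 20.8% and 22.1%, were higher and lower. Of the other coding genes, it was 23.2% and 31.6%, then 26.2% and 30%.

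Level and base composition move with this split. The median transcript GC content was 42.1% with a KRAB box and 61.1% without one. At a mean of at least 10 CPM, 42 genes with the box gave 4 higher and 5 lower with siYAP/TAZ#1 and 4 higher and 10 lower with siYAP/TAZ#2. The 23 without it gave 1 higher and 7 lower, then 3 higher and 7 lower. Leaving out siYAP/TAZ#2 replicate 1, those with the box gave 4 and 9, then 8 and 11, and those without it 4 and 10, then 3 and 12. Of the other coding genes at that level, 16.4% were higher and 36.3% lower with siYAP/TAZ#1, and 19.2% and 36.2% with siYAP/TAZ#2. The part of level and GC content in the difference between the classes was not tested. By number of fingers, 29 members with fewer than 8 gave 2 higher and 4 lower with siYAP/TAZ#1 (6.9% and 13.8%) and 5 and 6 with siYAP/TAZ#2 (17.2% and 20.7%). The 52 with more than 15 gave 4 and 1 (7.69% and 1.92%), then 6 and 1 (11.5% and 1.92%). Leaving out siYAP/TAZ#2 replicate 1, these became 4 and 7, then 3 and 7, for the fewer fingers and 5 and 1, then 13 and 3, for the more. All genes tested gave 16.4% and 18.5%, then 19% and 19.2%, with all libraries. These classes also differed in median level (11.7 and 5.28 CPM) and transcript GC content (50.8% and 41%).

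Along the chromosome, members fell into 16 groups separated by gaps of over 1 Mb, of which 9 hold at least 5 members and 235 in all. The cluster from ZNF101 to ZNF254 (chr19:19668796-24129961) lists 37 members and 28 were tested, of which 0 were called higher or lower in either comparison (1 was higher with siYAP/TAZ#1 without siYAP/TAZ#2 replicate 1). Its median log2 changes were −0.02 and −0.04, and its genes were measured less well, with a median standard error of 0.203 and 0.206 and a median mean level of 1.46 CPM. ZNF91 and ZNF208, long arrays of 31 and 36 fingers, lie in it. The cluster at chr19:34677639-34964049 holds ZNF302, ZNF181, ZNF599, ZNF30 and ZNF792 and had the highest medians, 0.36 and 0.33. Of its 5 members, 3 were higher with siYAP/TAZ#1 (60%) and 2 with siYAP/TAZ#2 (40%), or 4 and 4 without that library. Of all genes tested, 16.4% were higher and 18.5% lower with siYAP/TAZ#1, and 19% and 19.2% with siYAP/TAZ#2. At chr19:43525497-45076588, 24 members gave 4 higher and 2 lower with siYAP/TAZ#1 (16.7% and 8.33%) and 6 higher and 2 lower with siYAP/TAZ#2 (25% and 8.33%). The median mean level was 6.92 CPM in the cluster of 5 members and 4.78 CPM in that of 24. Of other coding genes at a mean of 1 to 10 CPM, 33.1% were higher and 8.66% lower with siYAP/TAZ#1. With siYAP/TAZ#2 it was 39.3% and 9.09% of them. The cluster near the end of the long arm (chr19:55476332-58481230) is the largest, with 58 tested of 59. It gave 4 higher and 5 lower with siYAP/TAZ#1 (6.9% and 8.62%) and 6 higher and 11 lower with siYAP/TAZ#2 (10.3% and 19%). Without siYAP/TAZ#2 replicate 1 these were 5 and 11, then 7 and 16. It holds 7 of the 13 members that differed between the combinations. Of its members, 8.62% were higher and 3.45% lower with siYAP/TAZ#1 than with siYAP/TAZ#2, against 6.92% and 8.2% of all genes tested.

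**Figure D3:**
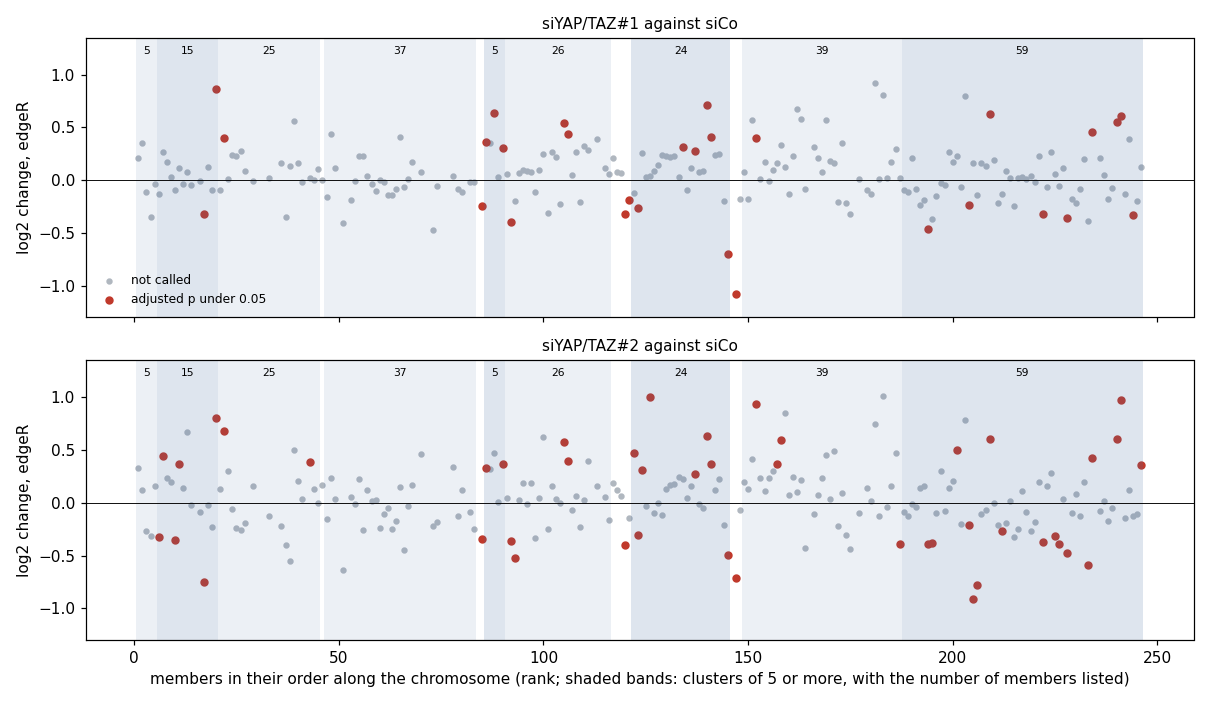
Log2 change of each tested member with siYAP/TAZ#1 (upper panel) and siYAP/TAZ#2 (lower panel) against siCo, in order along chromosome 19 (rank, not distance), with called members in red and clusters of 5 or more shaded. The cluster from ZNF101 to ZNF254 has 0 called members in both panels, and the last cluster holds called members in both directions.

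Members that rose with both combinations are given first, by the rule of the largest changes whose 8 treated libraries do not overlap the 4 siCo libraries. ZNF233, a KRAB gene at chr19:44259880-44275317 (plus strand), had 2.22, 2.68, 2.4 and 2.33 CPM with siYAP/TAZ#1 and 2.27, 1.82, 2.58 and 2.41 CPM with siYAP/TAZ#2, against 1.56, 1.57, 1.2 and 1.51 CPM with siCo. Its lowest treated library, at 1.82 CPM, stood above its highest siCo library. The log2 change was 0.71 ± 0.16 with siYAP/TAZ#1 (SE, edgeR adjusted p 0.00185) and 0.63 ± 0.16 with siYAP/TAZ#2 (adjusted p 0.00448). It overlaps ZNF235 on the other strand, and no source used here says whether counting used strand, so reads of the pair cannot be told apart.

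ZNF837 and ZNF497 are neighbours in the last cluster that lack a KRAB box. ZNF837 (chr19:58367618-58381060, minus strand) had 8.68, 11.6, 10.7 and 7.84 CPM with siYAP/TAZ#1 and 17.7, 10.1, 11.5 and 10.5 CPM with siYAP/TAZ#2, against 6.15, 6.41, 7.35 and 5.55 CPM with siCo. Every treated library was above every siCo library, and the highest was the siYAP/TAZ#2 library that stands apart. Its log2 change was 0.61 ± 0.17 (edgeR adjusted p 0.0111) and 0.97 ± 0.17 (adjusted p 0.000275), the second falling to 0.76 without that library. ZNF497 (chr19:58354357-58362848, minus strand) averaged 14.3 ± 1.39 CPM with siYAP/TAZ#1 and 14.8 ± 3.34 CPM with siYAP/TAZ#2, against 9.80 ± 1.96 CPM with siCo. It rose by a log2 of 0.55 ± 0.15 and 0.60 ± 0.15, and it overlaps A1BG-AS1 on the other strand and a gene without a symbol on its own.

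ZNF585A, a KRAB gene with 21 fingers at chr19:37106734-37172741 (minus strand), had 6.63, 7.97, 7.4 and 8.01 CPM with siYAP/TAZ#1 and 6.66, 8.08, 7.84 and 8.3 CPM with siYAP/TAZ#2, against 5.6, 5.08, 4.65 and 5.29 CPM with siCo. The groups did not overlap, and the log2 change was 0.54 ± 0.10 (edgeR adjusted p 0.000558) and 0.58 ± 0.10 (adjusted p 0.00026). Its near copy ZNF585B, 94.5% identical in protein, rose as well, by 0.44 and 0.39, with 11.5 ± 0.97 and 11.1 ± 1.92 CPM in the combinations against 8.45 ± 0.784 CPM in siCo. Reads shared between such copies can be split either way by an estimator, so each value of the pair is uncertain.

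The remaining 4 of the 8 carry a KRAB box. ZNF606 averaged 6.45 ± 0.41 CPM with siYAP/TAZ#1 and 6.32 ± 0.645 CPM with siYAP/TAZ#2, against 4.70 ± 0.286 CPM with siCo, which is a log2 change of 0.46 ± 0.10 and 0.43 ± 0.10. ZNF112 rose by 0.41 ± 0.11 and 0.37 ± 0.11, with 4.52 ± 0.459 and 4.39 ± 0.222 CPM in the combinations against 3.40 ± 0.19 CPM in siCo. ZNF792 averaged 12.8 ± 0.865 and 13.4 ± 0.608 CPM with the combinations, against 10.4 ± 0.703 CPM with siCo. These are modest shifts, each larger than the spread of its groups.

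ZNF613 (chr19:51927147-51948759, plus strand) had 1.79, 2, 1.55 and 2 CPM with siYAP/TAZ#1 and 2.46, 2.83, 2.55 and 2.79 CPM with siYAP/TAZ#2, against 1.44, 1.54, 1.24 and 1.31 CPM with siCo. The 3 groups did not overlap. Its log2 change of 0.40 ± 0.15 with siYAP/TAZ#1 only just passed (edgeR adjusted p 0.0496) and was not called by DESeq2 (adjusted p 0.0825). With siYAP/TAZ#2 the change was 0.94 ± 0.15 (edgeR adjusted p 9.65e-05), and the difference between the combinations was −0.54 ± 0.14 (adjusted p 0.0165). The other members higher with both were ZNF846, ZNF627, ZNF547, ZNF302 and ZNF226, with log2 changes of 0.27 to 0.87, besides ZNF585B.

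**Figure D4:**
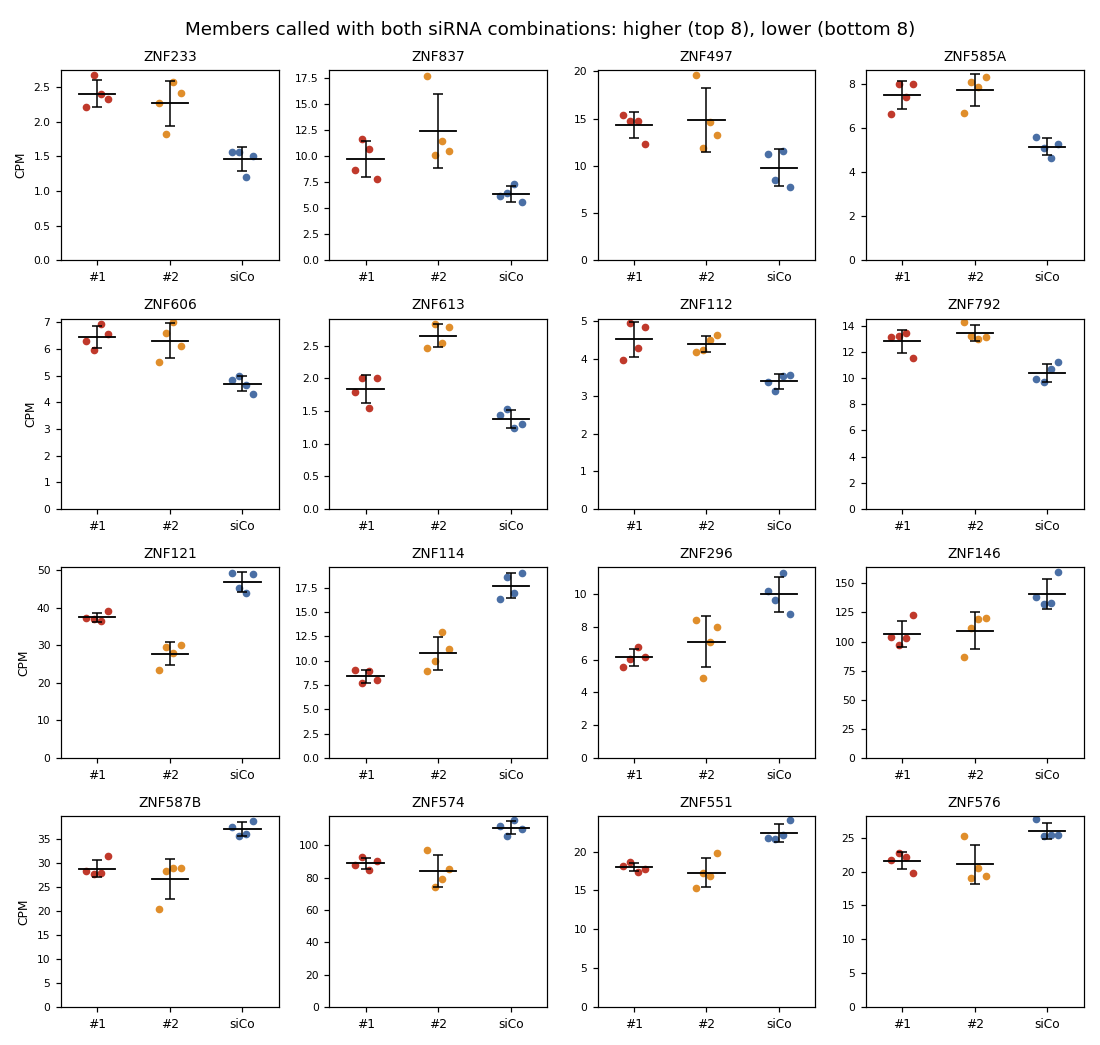
CPM in every library (points), with the mean and SD of 4 (bars), for the 8 members with the largest rises and the 8 with the largest falls shared by the combinations, with siYAP/TAZ#1 to the left, siYAP/TAZ#2 in the middle and siCo to the right in each panel. By the rule that chose them, treated and siCo libraries do not overlap in any panel; ZNF114 has the widest gap as a ratio, with treated libraries at 7.66 to 12.9 CPM and siCo libraries at 16.3 to 19 CPM.

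ZNF114 fell most by the smaller of its 2 changes. This KRAB gene with only 3 fingers (chr19:48270102-48287608, plus strand) had 9.02, 7.66, 8.9 and 7.96 CPM with siYAP/TAZ#1 and 8.97, 9.96, 12.9 and 11.2 CPM with siYAP/TAZ#2, against 16.3, 18.6, 16.9 and 19 CPM with siCo. Its highest treated library, at 12.9 CPM, lay below the lowest siCo library. The log2 change was −1.08 ± 0.11 (edgeR adjusted p 8.09e-07) and −0.72 ± 0.10 (adjusted p 4.58e-05), and it was lower with siYAP/TAZ#1 than with siYAP/TAZ#2 by −0.36 ± 0.11 (adjusted p 0.0311), a call kept in 8 of 12 fits that each leave out 1 library. ZNF114-AS1 overlaps it on the other strand.

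ZNF296, which lacks a KRAB box and whose mouse counterpart is known from pluripotent cells, had 5.54, 6.06, 6.77 and 6.16 CPM with siYAP/TAZ#1 and 8.43, 4.89, 7.07 and 7.98 CPM with siYAP/TAZ#2, against 10.2, 9.64, 11.3 and 8.79 CPM with siCo. The groups came close, at 8.43 CPM in the highest treated and 8.79 CPM in the lowest siCo library. It fell by a log2 of 0.70 ± 0.14 with siYAP/TAZ#1 (edgeR adjusted p 0.000875) and by 0.49 ± 0.14 with siYAP/TAZ#2 (adjusted p 0.0101).

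ZNF121, also without a KRAB box (chr19:9560353-9584533, minus strand), had 37.2, 37, 36.6 and 39.2 CPM with siYAP/TAZ#1 and 23.4, 29.6, 28 and 30.2 CPM with siYAP/TAZ#2, against 49.2, 45.4, 44 and 48.9 CPM with siCo. The 3 groups were apart, with siYAP/TAZ#2 lowest. The log2 change was −0.32 ± 0.07 with siYAP/TAZ#1 and −0.76 ± 0.08 with siYAP/TAZ#2 (edgeR adjusted p 0.0029 and 8.61e-07), and siYAP/TAZ#1 exceeded siYAP/TAZ#2 by 0.43 ± 0.08 (adjusted p 0.000679).

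ZNF146, a protein made almost only of fingers, is the second highest member in siCo. It had 104, 97.1, 103 and 123 CPM with siYAP/TAZ#1 and 86.4, 112, 119 and 120 CPM with siYAP/TAZ#2, against 138, 132, 133 and 160 CPM with siCo. The highest treated library, at 123 CPM, stayed below the lowest siCo library. It fell by a log2 of 0.40 ± 0.10 and 0.36 ± 0.10. ZNF260, 80.5% identical to it in protein, could share reads with it.

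ZNF574, without a KRAB box and with CATTCC in its promoter, had 88.1, 92.7, 84.9 and 90.2 CPM with siYAP/TAZ#1 and 97.1, 74, 79.2 and 85.5 CPM with siYAP/TAZ#2, against 112, 106, 116 and 110 CPM with siCo. No treated library reached the siCo range, and the fall was 0.32 ± 0.07 with siYAP/TAZ#1 and 0.40 ± 0.07 with siYAP/TAZ#2 on the log2 scale. ZNF587B, the KRAB gene shown with it, averaged 28.9 ± 1.85 and 26.7 ± 4.16 CPM in the combinations against 37.1 ± 1.42 CPM in siCo. ZNF551 (KRAB) and ZNF576 (no KRAB) complete the 8, with log2 changes of −0.32 and −0.38 for ZNF551 and −0.26 and −0.30 for ZNF576. ZNF587B overlaps ZNF586, and ZNF576 overlaps SRRM5, on the same strand. The other members lower with both were ZNF581, ZNF507 and ZNF264, with changes of −0.46 to −0.21.

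Calls in both directions depend on the scale. On log2(TPM + 1), the rises of ZNF233, ZNF112 and ZNF792 were not called with either combination (limma adjusted p 0.154 and 0.138, 0.0894 and 0.0504, 0.146 and 0.052), and those of ZNF585A, ZNF606 and ZNF613 were not called with siYAP/TAZ#1 (0.169, 0.0939 and 0.266). For the falls, the direction itself could turn. On log2(TPM + 1), which shifted the median of all genes to 0.19 and 0.24, ZNF574, ZNF551 and ZNF576 had positive differences with both combinations and ZNF121 and ZNF587B with siYAP/TAZ#1, none of them called. With library size alone, the calls of ZNF146, ZNF587B, ZNF551 and ZNF576 were lost with both combinations, as were those of ZNF121 and ZNF574 with siYAP/TAZ#1 and of ZNF296 with siYAP/TAZ#2, with no change of sign. ZNF114 kept its call with both combinations under library size alone, and on log2(TPM + 1) its differences of −0.63 and −0.20 were not called.

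The siRNA combinations were then set against each other. Of the 221 members, 8 were higher and 5 lower with siYAP/TAZ#1 than with siYAP/TAZ#2 (3.62% and 2.26%), where 6.92% and 8.2% of all genes tested and 9.37% and 11.7% of the other coding genes were called. Weighted to equal level, the other coding genes gave 6.51% and 10.6%. Without siYAP/TAZ#2 replicate 1 the counts were 10 and 12.

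ZNF805 differed most. This KRAB gene (chr19:57240685-57255135, plus strand) had 28.9, 29, 28.3 and 30.8 CPM with siYAP/TAZ#1 and 11.5, 15.3, 13.5 and 15.3 CPM with siYAP/TAZ#2, while siCo had 27.4, 23.3, 27.6 and 26.5 CPM. The siYAP/TAZ#2 libraries all lay far below both other groups, and the siYAP/TAZ#1 libraries lay just above siCo, a difference that did not pass (edgeR adjusted p 0.177). The combinations differed by 1.07 ± 0.09 on the log2 scale (edgeR adjusted p 2.65e-07), and siYAP/TAZ#2 lay below siCo by −0.91 ± 0.09 (adjusted p 6.43e-07). Its neighbour ZNF264, 85.3% identical in protein, averaged 25.8 ± 1.18 CPM with siYAP/TAZ#1 and 26.2 ± 2.86 CPM with siYAP/TAZ#2, against 30.4 ± 0.851 CPM with siCo, and so did not follow it.

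ZNF460, the next member along the chromosome (chr19:57280051-57293569, plus strand), had 59.2, 56.1, 55.3 and 60.2 CPM with siYAP/TAZ#1 and 34.9, 37.4, 36.6 and 39.3 CPM with siYAP/TAZ#2, while siCo had 66.3, 63.8, 58.1 and 66.2 CPM. The siYAP/TAZ#2 libraries were below all others, and siYAP/TAZ#1 overlapped siCo. The combinations differed by 0.64 ± 0.06 (edgeR adjusted p 1.34e-06), and siYAP/TAZ#2 lay below siCo by −0.78 ± 0.06 (adjusted p 5.55e-08). ZNF460-AS1 overlaps it on the other strand. ZNF331, an imprinted KRAB gene, averaged 16.4 ± 1.16 CPM with siYAP/TAZ#1 and 12.4 ± 0.767 CPM with siYAP/TAZ#2, while siCo averaged 16.2 ± 0.843 CPM, a difference between the combinations of 0.41 ± 0.08 (adjusted p 0.00117).

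In the other direction stood ZNF613 and ZNF114, given above, and ZNF575 and ZNF784, which lack a KRAB box. ZNF575 had 1.87, 2.14, 2.7 and 2.22 CPM with siYAP/TAZ#1 and 4.33, 2.65, 3.3 and 3.23 CPM with siYAP/TAZ#2, while siCo had 2.57, 2.71, 2.44 and 2.05 CPM. The groups overlapped, and the highest library was siYAP/TAZ#2 replicate 1. The difference between the combinations was −0.59 ± 0.17 (edgeR adjusted p 0.0222) and −0.46 without that library. ZNF784 averaged 10.1 ± 0.416 CPM with siYAP/TAZ#1 and 13.2 ± 2.63 CPM with siYAP/TAZ#2, with siCo at 11.9 ± 0.5 CPM. Its difference of −0.38 ± 0.11 moved to −0.23 when siYAP/TAZ#2 replicate 1, at 17.1 CPM, was left out. The remaining members called in this contrast were ZNF317, ZNF543, ZNF586 and ZNF776, higher with siYAP/TAZ#1 by 0.27 to 0.37, and ZNF587, lower by −0.30.

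**Figure D5:**
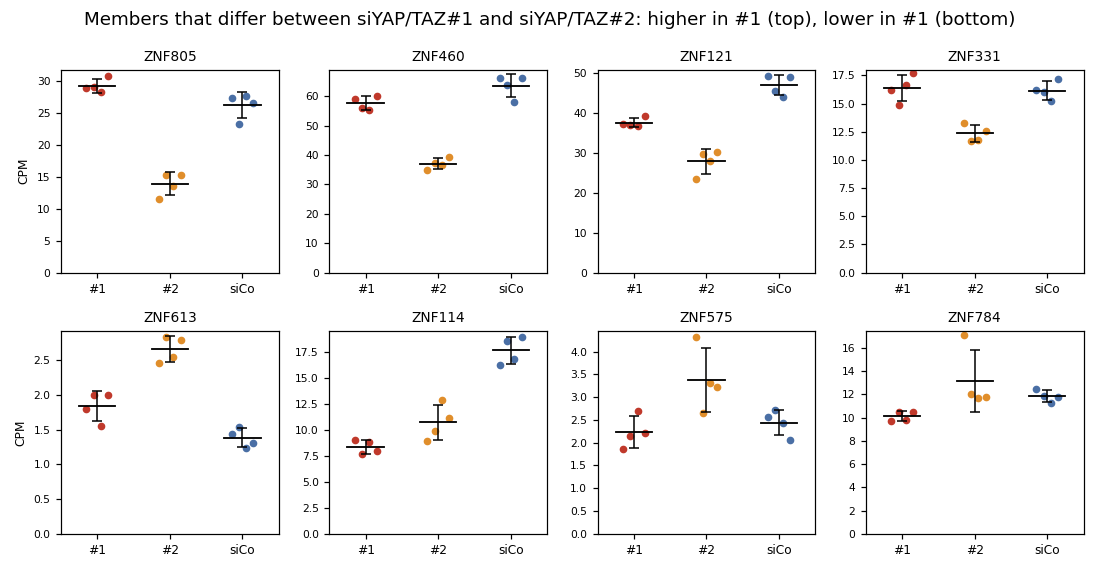
CPM in every library (points), with the mean and SD of 4 (bars), for the 8 members that differed most between the combinations, with siYAP/TAZ#1 to the left, siYAP/TAZ#2 in the middle and siCo to the right in each panel. For ZNF805 and ZNF460 the siYAP/TAZ#2 libraries, at 11.5 to 15.3 and 34.9 to 39.3 CPM, lie below all others, while for ZNF575 the groups overlap.

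Members with a described function were listed for that reason. ZNF331 and ZNF317, also on that list, were called lower than siCo with siYAP/TAZ#2, by −0.39 and −0.36 (edgeR adjusted p 0.000698 and 0.000128). They did not pass with siYAP/TAZ#1 (edgeR adjusted p 0.875 and 0.256). Of those described next, 1 passed with all 12 libraries. ZNF91, which represses SVA retrotransposons, averaged 1.49 ± 0.272 CPM with siYAP/TAZ#1 and 1.45 ± 0.532 CPM with siYAP/TAZ#2, against 1.57 ± 0.295 CPM with siCo. ZNF93, which represses LINE-1 elements, lay at 0.288 and 0.243 CPM against 0.380 CPM, near the floor of measurement. ZNF274, which brings SETDB1 to the ends of other zinc finger genes, averaged 31.4 ± 1.16 and 30.7 ± 2.29 CPM in the combinations against 30.3 ± 2.23 CPM in siCo. None of these 3 passed in either comparison, which does not show that they did not change.

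ZNF175, described as a repressor of the HIV promoter, averaged 8.15 ± 0.274 and 8.85 ± 0.728 CPM with the combinations against 7.72 ± 0.379 CPM with siCo, and did not pass with all 12 libraries. ZNF304, ZNF350 (a partner of BRCA1), ZNF382, ZNF649 and ZNF675 did not pass either, at mean levels of 0.528 to 8.61 CPM over the groups. ZNF224, a KRAB repressor of aldolase A, did pass with siYAP/TAZ#1, by a log2 of 0.32 ± 0.10 (edgeR adjusted p 0.0275), with 13 ± 1.72 CPM and 12.1 ± 1.14 CPM in the combinations against 10.4 ± 0.914 CPM in siCo. That call was lost when any of 6 single libraries was left out. Without siYAP/TAZ#2 replicate 1, ZNF175, ZNF350 and ZNF224 were called higher with siYAP/TAZ#2 (edgeR adjusted p 0.0141, 0.0329 and 0.0241), and ZNF649 was called higher with it on log2(TPM + 1) (limma adjusted p 0.0476).

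Of the 5 most abundant members, ZNF146 and ZNF574 fell with both combinations, as given above. ZNF580 averaged 72.9 ± 6.41 CPM with siYAP/TAZ#1 and 92.7 ± 21.2 CPM with siYAP/TAZ#2, against 82.9 ± 7.31 CPM with siCo, and did not pass. It was called lower with siYAP/TAZ#1 without siYAP/TAZ#2 replicate 1 (edgeR adjusted p 0.0489), and higher with siYAP/TAZ#2 by 0.55 on log2(TPM + 1) (limma adjusted p 0.0355). ZNF444, a SCAN domain protein, was at 56.9 ± 6.06 and 58.8 ± 14.1 CPM against 63.0 ± 7.03 CPM and did not pass either, though without siYAP/TAZ#2 replicate 1 it was called lower with siYAP/TAZ#2 (edgeR adjusted p 0.0166). ZNF787 fell with siYAP/TAZ#2 by a log2 of 0.39 ± 0.14 (edgeR adjusted p 0.0404), at 73.8 ± 8.23 and 72.7 ± 17.4 CPM in the combinations against 95.0 ± 14.2 CPM in siCo. That call was lost with library size alone (−0.21), and on log2(TPM + 1) the difference was 0.03 and not called. The combinations were not called different for it.

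Zinc finger genes of the same naming on other chromosomes numbered 263, of which 238 were tested. They gave 31 higher and 38 lower with siYAP/TAZ#1 (13% and 16%) and 40 higher and 49 lower with siYAP/TAZ#2 (16.8% and 20.6%), against 7.24% and 5.88%, then 10.9% and 9.95%, in the chromosome 19 members. Coding genes of other names on chromosome 19, 912 of which were tested, gave 205 higher and 170 lower, then 251 higher and 170 lower. Leaving out siYAP/TAZ#2 replicate 1, the genes on other chromosomes gave 35 and 54, then 56 and 59, and the coding genes of other names 241 and 249, then 240 and 295. These counts are not matched for level. Of the members, 30 had another member at 80% or more protein identity, and the 27 tested gave 3 higher and 3 lower in each comparison.

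Genes listed as silencing cofactors of KRAB proteins were counted last, from a list of 30, all tested. The list is broad, with general DNA methylation genes such as UHRF1 and DNMT1 in it, and their part in silencing by KRAB proteins was not tested. With siYAP/TAZ#1, 1 was higher and 11 lower (3.33% and 36.7%), and with siYAP/TAZ#2, 6 were higher and 10 lower (20% and 33.3%). Of all genes tested, 16.4% and 18.5%, then 19% and 19.2%, were called. The list's median level was 67.1 CPM. Of other coding genes at a mean of at least 10 CPM, 16.4% and 36.3%, then 19.2% and 36.2%, were called, so the list's lower share was near that of this level. Lower with both were TRIM28, CBX1, HDAC2, MORC2, TASOR, UHRF1, DNMT1 and SUV39H2. TRIM28, the common partner of the KRAB boxes, averaged 832 ± 45.3 CPM with siYAP/TAZ#1 and 794 ± 72.2 CPM with siYAP/TAZ#2, against 1060.0 ± 32.8 CPM with siCo, a log2 change of −0.35 and −0.42. UHRF1, which guides maintenance DNA methylation, was at 72.9 and 93.3 CPM against 200 CPM, and TASOR, of the HUSH complex, at 43.2 and 45.3 CPM against 71.3 CPM.

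The de novo methyltransferase DNMT3A was higher with both, at 42.7 and 42.8 CPM against 25.8 CPM (log2 change 0.72 and 0.73). DNMT3B moved in opposite directions, by −0.43 with siYAP/TAZ#1 and 0.33 with siYAP/TAZ#2, at 17.4 ± 1.16 and 29.4 ± 3.05 CPM against 23.4 ± 2.03 CPM. SETDB1 was called with siYAP/TAZ#2, higher by 0.28. Without siYAP/TAZ#2 replicate 1 the list gave 4 higher and 16 lower with siYAP/TAZ#1 and 7 higher and 11 lower with siYAP/TAZ#2. SETDB1 and CBX5 joined DNMT3A among 3 higher with both. Of all genes tested without that library, 19.1% and 22.3%, then 20.8% and 22.1%, were higher and lower. Of the coding genes other than the members, it was 23.2% and 31.6%, then 26.2% and 30%. The GC offset gave 4 of the list higher with both, while 42.1% of all genes were called in either direction with siYAP/TAZ#1 and 45.1% with siYAP/TAZ#2. With library size alone the list gave 7 higher and 7 lower with siYAP/TAZ#1 and 10 higher and 5 lower with siYAP/TAZ#2. The 21581 genes tested gave 5876 higher and 1905 lower, then 6538 and 2037, under that scaling. TRIM28, UHRF1, TASOR and SUV39H2 were still lower with both. On log2(TPM + 1) TRIM28 differed by 0.11 and 0.14 and was not called. TASOR (−0.29 and −0.24) and SUV39H2 (−0.45 and −0.38) were not called on that scale either. There 1 gene of the list was lower with both, UHRF1 (limma adjusted p 0.00336 and 0.0199), and 1 was higher with both, DNMT3A.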

How the data were processed

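RNA was sequenced on the BGISEQ-500 from 12 A549 libraries (3 groups of 4), with an RNA integrity number above 7, per the labels' protocols. Tools named in the submitters' processing notes are Trim Galore 0.6.4 and kallisto 0.4.6, with the build GRCh38.p13. The authors deposited estimated counts per gene without scaling, and their TPM values in a second table per library. GENCODE v29, which gave gene types and positions, holds 58444 of the 60617 identifiers. No source used here states strandedness.

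The quasi-likelihood F test of edgeR 4.0.16 (R 4.3.3) was run on rounded counts, with TMM scaling, filterByExpr and group alone in the model of all 12 libraries. P-values were Benjamini-Hochberg adjusted across the 21581 genes past the filter, and a gene was called at an adjusted p under 0.05. The test gives no standard error, so each SE was derived from the log2 change and the F statistic and is approximate. Library totals were 29.6 to 38.3 (in units of 1e6). Correlations within groups were 0.979 to 0.991, and chi-square values per degree of freedom of 3.63 to 72.7 were above sampling noise for every pair, so all libraries were kept apart. If replicates share a culture, p-values measure only technical spread. The fit was tested on simulated data.

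KRAB boxes were searched with a profile built from the members' own GENCODE v29 translations (E-value under 1e-05), fingers with the C2H2 pattern, and near copies by protein alignment. Named members were 8 with the largest rises and 8 with the largest falls called with both combinations, by the smaller of the log2 changes, without overlap and with a mean of at least 1 CPM; the 4 most different between combinations in each direction; the 5 of highest TPM in siCo; and a list with described functions. Others named stand in counts of calls and were chosen after their values were seen. One gene of the cofactor list is not reported here. Members and lists were chosen with earlier results of these data known. Alternatives were DESeq2 1.42.0, library size alone, no filter, limma 3.58.1 on log2(TPM + 1) and log2(TPM + 0.1), a replicate block, GC and length offsets, a minimum log2 change of 0.5 and leaving out each library.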

Additional observations from a re-analysis of the deposited data

Results flagged for a closer look

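The highest or lowest library of a group stood far from the other 3 in 9 of 120 groups of 4 examined, where chance gives about 1 in 20. Of these, 5 were siYAP/TAZ#2 replicate 1, the library whose low-GC genes are low: ZNF587B at 20.5 CPM (28.3 to 29.1 in the others), ZNF675 at 5.71 CPM (9.48 to 9.74), ZNF224 at 10.5 CPM (12.6 to 12.9), ZNF784 at 17.1 CPM (11.7 to 12) and the summed level of KRAB genes at 1176 CPM (1348 to 1382). The other 4 were ZNF233 in siCo replicate 3 (1.2 CPM, others 1.51 to 1.57), ZNF792 in siYAP/TAZ#1 replicate 4 (11.5 CPM, others 13.1 to 13.4), ZNF576 in siCo replicate 1 (27.7 CPM, others 25.3 to 25.4) and ZNF649 in siYAP/TAZ#1 replicate 2 (0.507 CPM, others 0.836 to 0.9).

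For 13 members the effects of the combinations differed by the direct contrast in edgeR. The log2 difference, siYAP/TAZ#1 minus siYAP/TAZ#2, was positive for ZNF805 (1.07), ZNF460 (0.64), ZNF121 (0.43), ZNF331 (0.41), ZNF776 (0.37), ZNF586 (0.34), ZNF543 (0.27) and ZNF317 (0.27). It was negative for ZNF575 (−0.59), ZNF613 (−0.54), ZNF784 (−0.38), ZNF114 (−0.36) and ZNF587 (−0.30). Leaving out each of the 12 libraries in turn, the calls of ZNF805, ZNF460, ZNF121, ZNF331 and ZNF317 were kept all 12 times, those of ZNF613 and ZNF586 11 times, those of ZNF575 and ZNF784 10, that of ZNF776 9, that of ZNF114 8, that of ZNF587 6 and that of ZNF543 3 times.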

How the results depend on the processing

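Members were called higher less often than other coding genes of equal level under every alternative run. They were called lower less often except with siYAP/TAZ#2 under the GC offset (16.7% against 16.3%) and with siYAP/TAZ#1 on log2(TPM + 0.1) (0.905% against 0.787%). The counts moved more. In the order higher and lower with siYAP/TAZ#1, then with siYAP/TAZ#2, then with both, library size alone gave 39 and 3, 49 and 6, 25 and 2. The GC offset gave 30 and 24, 33 and 37, 20 and 20, and with the replicate block 29 and 24, 33 and 34, 21 and 20. A minimum log2 change of 0.5 left 7 and 2, 11 and 6, 6 and 1. The test on log2(TPM + 1) gave 5 and 1, 18 and 0, 5 and 0, and on log2(TPM + 0.1) 5 and 2, 21 and 0, 5 and 0. Between the combinations, 5 and 4 members were higher and lower with library size alone, 16 and 9 under the GC offset, 14 and 8 with the block added, 2 and 2 with the minimum change and 0 and 0 on TPM. DESeq2 gave 17 and 15 with siYAP/TAZ#1 and 22 and 25 with siYAP/TAZ#2.

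Leaving out a library gave 10 to 23 higher and 9 to 20 lower with siYAP/TAZ#1, 15 to 38 and 17 to 27 with siYAP/TAZ#2, 9 to 19 and 8 to 14 with both, and 5 to 10 and 2 to 12 between the combinations. The highest counts came without siYAP/TAZ#2 replicate 1. Counts fell by over 1.5 times without siCo replicate 3 (10 higher with siYAP/TAZ#1, 9 with both), siYAP/TAZ#1 replicate 4 (10 and 9, and 5 between the combinations), siYAP/TAZ#2 replicate 3 (15 higher with siYAP/TAZ#2) and replicate 4 (15, and 9 with both). Members lower with siYAP/TAZ#1 than siYAP/TAZ#2 numbered 2 without any of siYAP/TAZ#1 replicates 1 to 3, 3 without siYAP/TAZ#2 replicate 3 or 4, and 8 without replicate 2. Libraries of the same replicate number correlated across groups at −0.1533 to 0.2083 and were best partners in 8 of 24 cases. The highest values were those of replicate 4, at 0.2083 between the combinations and 0.1928 and 0.1485 of siYAP/TAZ#1 and siYAP/TAZ#2 with siCo. Yet siCo replicate 4 was closer to siYAP/TAZ#2 replicate 2 (0.1801) than to its replicate 4. The replicate block alone gave 17 and 14 with siYAP/TAZ#1 and 22 and 23 with siYAP/TAZ#2.

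Of 987 values of the 47 called changes of named members under alternatives, 22 changed sign, all on TPM, and 119 kept their direction but were not called. Of 735 values of the 35 changes not called, 66 changed sign (28 on TPM) and 44, in 15 changes, were called in the same direction. On log2(TPM + 1) and log2(TPM + 0.1), siYAP/TAZ#1 gave 0.0481 and 0.0539 for ZNF121, 0.0049 and 0.0042 for ZNF587B, 0.0463 and 0.0478 for ZNF574, 0.079 and 0.0938 for ZNF551, and 0.10 and 0.11 for ZNF576. With siYAP/TAZ#2 they were 0.0249 and 0.0277 for ZNF331, 0.0325 and 0.0334 for ZNF574, 0.27 and 0.30 for ZNF551, 0.0723 and 0.0773 for ZNF576, 0.0308 and 0.0314 for ZNF787, and 0.13 and 0.14 for ZNF317. The cause was not tested. At these totals, 25 members were too low to test.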
